A study of Mus musculus with 6 samples.

Results

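The lincRNAs described here are the long intergenic non-coding RNAs of exosomes from undifferentiated P19 cells (UD-P19) and from P19 neurons (P19N) that held reads matching no other transcript of a non-coding RNA reference. They were chosen by these reads, their unique counts, although most members share sequence with other annotated genes, as given below. Of 5880 transcripts in the count table, 1933 are annotated as lincRNAs, 909 of these held at least 1 unique count, and 84 held at least 15 over the 6 libraries. Leaving out 13 named transcripts and loci, among them Gm42418, Malat1, Neat1 and the Snhg genes, left 71 transcripts of 70 genes, since A230057D06Rik is counted as 2 transcripts, named here A230057D06Rik-7061 and A230057D06Rik-8953 after the last digits of their identifiers. Small RNA-seq was made from exosomes that both kinds of culture released into serum-free medium, and the comparison asks which non-coding RNAs the exosomes of neurons and of undifferentiated cells carry. The P19 line was established from a tumour of mouse embryonal cells and is pluripotent. UD-P19 exosomes came from 3 libraries (replicates 1, 2 and 3) of cells kept for 24 h in α-MEM with N2 supplement and no serum. P19N exosomes came from 3 libraries (replicates 4, 5 and 6) of cells that had received retinoic acid for 4 days. The cells were plated as embryoid bodies on poly-L-lysine in neurobasal medium with glutamine, B27 and N2. They were also treated with 5-fluorouridine and uridine in combination, to inhibit proliferation. This treatment was given on days 3 and 8, on day 8 after the medium had been taken. Replicate 4 thus came from cells with fewer exposures than replicates 5 and 6. Replicates 4, 5 and 6 were collected at culture ages of 8, 10 and 12 days, so that age and replicate cannot be told apart, and successive collections may come from the same flasks, in which case the p-values below measure a spread that is partly technical.

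LincRNAs are transcribed from their own genes between protein-coding genes, are mostly spliced and are often kept in the nucleus. Some are the primary transcripts from which microRNA hairpins are cut, some act on chromatin, as Xist does on the inactive X chromosome, and many contain mobile-element sequence that recurs across the genome. Exosomes are small vesicles of endosomal origin, and the RNA found in them is largely short or fragmented. A small RNA library therefore shows fragments of a lincRNA and not its full length.

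The table held between 454499 and 887460 counts per library, of which between 226444 and 594544 were unique, and unique counts were 71.4% ± 8.30 (SD, n = 3) of all counts in UD-P19 and 34.6% ± 3.40 (SD, n = 3) in P19N. A single transcript that is not a member, Gm42418, held between 79.1% and 84.5% of the unique counts in UD-P19 and between 47.2% and 50.8% in P19N. Gm42418 was taken here as a transcript of the ribosomal RNA precursor locus, as was its neighbour Gm26917, which is a member. UD-P19 replicate 2 stood apart from the other 5 libraries: 31 of the 71 members were highest there in CPM (deposited counts scaled to a common library total with TMM factors, as in the fit), against 288 of all 1286 tested transcripts (22.4%), and 10 members had more of their counts in it than in the other 5 libraries together. Results that rest on it are given with and without it, and its part in them was otherwise not tested. The table is one of non-coding RNAs, so that the labelled cell types were compared with non-coding markers alone. Transcripts of 7 neural marker genes summed to 1, 16 and 9 counts in UD-P19 and to 44, 36 and 15 in P19N, and the 3 of 7 pluripotent marker microRNAs found in the table summed to 2, 5 and 1 counts in UD-P19 and to 0 in each P19N library. These are raw counts, and the neural sums include the member Mir124a-1hg. Of the neural marker transcripts 3 could be tested and none was called, and no pluripotent one could be tested.

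Members that carry the sequence of a small RNA are shown first, because a short read from them may belong to either. Mir17hg (chr14:115042879-115046727, plus strand, GRCm38) is the host of the miR-17 cluster, whose microRNAs are abundant in dividing and pluripotent cells, and all 6 hairpins lie whole within its counted transcript. The mature sequences of RefSeq (GRCm38.p6), 5′ to 3′ and with the seed (bases 2 to 8) in capitals, fall into 4 seed groups, with miR-17-5p and miR-20a-5p sharing one and miR-19a-3p and miR-19b-3p another.
miR-17-5p: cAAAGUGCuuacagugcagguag
miR-20a-5p: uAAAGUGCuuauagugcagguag
miR-18a-5p: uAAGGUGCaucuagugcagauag
miR-19a-3p: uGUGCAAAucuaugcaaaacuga
miR-19b-3p: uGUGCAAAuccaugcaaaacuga
miR-92a-3p: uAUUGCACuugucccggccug

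6720427I07Rik (chr13:48532905-48546500, minus strand) holds 3 let-7 hairpins in its exons. The let-7 family is known to rise as cells leave the pluripotent state, and its members here share the seed in capitals. The microRNA of the minus-strand transcript Gm48742 lies on the other strand: Gm48742 (chr9:41405374-41532087) runs antisense over the Mir100 hairpin, whose main mature sequence is given last, also with its seed in capitals.
let-7a-5p: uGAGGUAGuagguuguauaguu
let-7d-5p: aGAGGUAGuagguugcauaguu
let-7f-5p: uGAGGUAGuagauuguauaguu
miR-100-5p: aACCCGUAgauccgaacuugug

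Gm48281 (chr10:10100420-10110099, minus strand, 2 exons, 716 bases) runs antisense over the snRNA gene Gm25682. Bases 22 to 183 of the transcript, in capitals within its first 200 bases, are the complement of 162 bases of Gm25682 at 100% identity, and the transcript also matches the other strand of Rnu1a1, Rnu1b1 and further genes of the U1 snRNA, which recognises the 5′ splice site, 33 snRNA genes in all.
Gm48281: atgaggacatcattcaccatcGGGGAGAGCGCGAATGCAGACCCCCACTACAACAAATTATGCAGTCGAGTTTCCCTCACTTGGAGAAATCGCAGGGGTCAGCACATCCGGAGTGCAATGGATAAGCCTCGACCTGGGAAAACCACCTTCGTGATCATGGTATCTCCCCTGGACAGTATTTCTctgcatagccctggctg

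The next 3 members, from 3 loci, are near-copies of one another: Gm49701 (chr16:58651490-58655244, minus strand), Gm45322 (chr8:49838068-49839428, plus strand) and Gm45627 (chr8:34658106-34659369, minus strand) share 355 bases at 96.6% identity to Gm49701. A run of 120 of these bases is shown from each, with the bases that differ from Gm49701 in capitals, 2 in Gm45322 and 3 in Gm45627. A read without one of those bases cannot be placed on a single member. A read with one may also match a protein-coding gene, as given below.
Gm49701: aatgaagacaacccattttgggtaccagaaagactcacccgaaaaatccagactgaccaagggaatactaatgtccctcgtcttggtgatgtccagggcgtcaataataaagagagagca
Gm45322: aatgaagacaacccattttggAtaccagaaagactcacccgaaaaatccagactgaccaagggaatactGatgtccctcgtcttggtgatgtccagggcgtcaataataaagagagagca
Gm45627: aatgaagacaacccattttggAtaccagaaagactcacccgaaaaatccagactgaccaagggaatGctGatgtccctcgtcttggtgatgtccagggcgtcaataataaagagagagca

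The shortest member was Bc1 (chr7:144914470-144914637, plus strand, 168 bases), a brain cytoplasmic RNA that is carried into dendrites and represses translation there. It is singled out for that role, after its values were seen. Capitals in its whole sequence mark bases 70 to 116, an A-rich stretch that was matched in at least 50 other annotated genes.
Bc1: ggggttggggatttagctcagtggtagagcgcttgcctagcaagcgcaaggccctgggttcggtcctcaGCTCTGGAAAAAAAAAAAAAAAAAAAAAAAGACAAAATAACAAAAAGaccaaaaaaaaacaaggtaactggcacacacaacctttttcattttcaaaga

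The members had a median transcript length of 2308 bases, from 168 bases in Bc1 to 93147 in AC160336.1, against a median of 1477 over the other 1859 lincRNA transcripts with a sequence. Of the 71, 13 had 1 exon (18.3%), against 155 of the others (8.34%), and the median GC content was 43.7% against 46.3%. These are descriptions, since a long transcript collects more reads and the rule asked for reads. Most members were rare: the median unique total was 29 over 6 libraries, 36 members had a unique total under 30 and 63 under 100. A single member, Gm26917, held 11136 of the 15759 unique counts of all members (70.7%). It is annotated as a lincRNA but was taken here as a transcript of the ribosomal RNA precursor locus. Where its reads came from was not tested.

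Unique counts are unique within a reference of non-coding RNAs alone. In the GENCODE annotation, which also holds protein-coding genes, 69 of the 71 members shared at least 30 bases at 90% identity or more with another gene, the median member with 263 genes and AC160336.1 with 7560. The 2 without such a match were Gm26917 and A230057D06Rik-7061. The search covered annotated transcripts alone. Whether Gm26917 shares sequence with a ribosomal RNA precursor that is not annotated was thus not tested. Gm49701, for example, shared 360 bases at 99.7% identity with a transcript of the protein-coding gene Noct. Its near-copies Gm45322 and Gm45627 matched Noct over 1364 bases at 97.8% and over 694 bases at 95.2%. Gm43055 and Gm42743 overlap Ythdc1 and the histone gene Hist2h2bb on the same strand. A read from any of these protein-coding genes could thus be counted here. The share of a member's counts that was unique ranged from 9.63% in Gm26905 to 100% in 9 members, with a median of 70.5%.

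On deposited counts, edgeR's quasi-likelihood test at an adjusted p of at most 0.05 called 13 of the 71 members, 6 higher and 7 lower in P19N. Over all 1286 tested transcripts it called 15% higher and 9.02% lower, so that 6 of 71 is below the share over all transcripts and 7 of 71 is close to it. On unique counts 9 members were called, 7 higher and 2 lower, where 14.3% of all 510 tested transcripts were higher and 10.6% lower. The unique total that chose the members was reached through 1 group only in 8 of the 13 called on deposited counts, which had under 15 unique counts in their lower group: Gm48281, Gm48742 and A230057D06Rik-7061 in UD-P19, and Mir17hg, Gm19792, 4933401D09Rik, Gm31392 and Xist in P19N. The same holds for Gm49753 in UD-P19. For these 9 a difference between the groups was partly built into the choice, most directly on unique counts, and their folds and p-values below are descriptions. More widely, 50 of the 71 members had under 15 unique counts in at least 1 group, and the same limit holds for any of them. Between the 2 fits 8 members were shared (6 higher and 2 lower), 5 were called on deposited counts alone and Gm49753 on unique counts alone. The log2 fold change had the same sign in both fits in 66 of 71 members. The median log2 fold change was -0.25 over the members and 0.21 over all tested transcripts on deposited counts, and -0.15 and -0.05 on unique counts. The scaling moves these values: with Gm42418 left out of the table the median over all tested transcripts moved to -0.02, and 6 members were higher and 11 lower, where 13.5% of all tested transcripts were higher and 15.3% lower. With totals alone 6 members were higher and 2 lower, where 15.2% of all were higher and 7% lower. On unique counts, totals alone moved the median over all transcripts to 1.02 and called 13 members, each of them higher, where 35.1% of all tested transcripts were higher and 3.53% lower. Single libraries also decide the number called: without P19N replicate 4 it was 4 on deposited and 4 on unique counts, where 17.2% and 13.9% of all tested transcripts were called in either direction, and without P19N replicate 5 it was 5 and 3, where 19% and 13.4% were called.

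**Figure D1:**
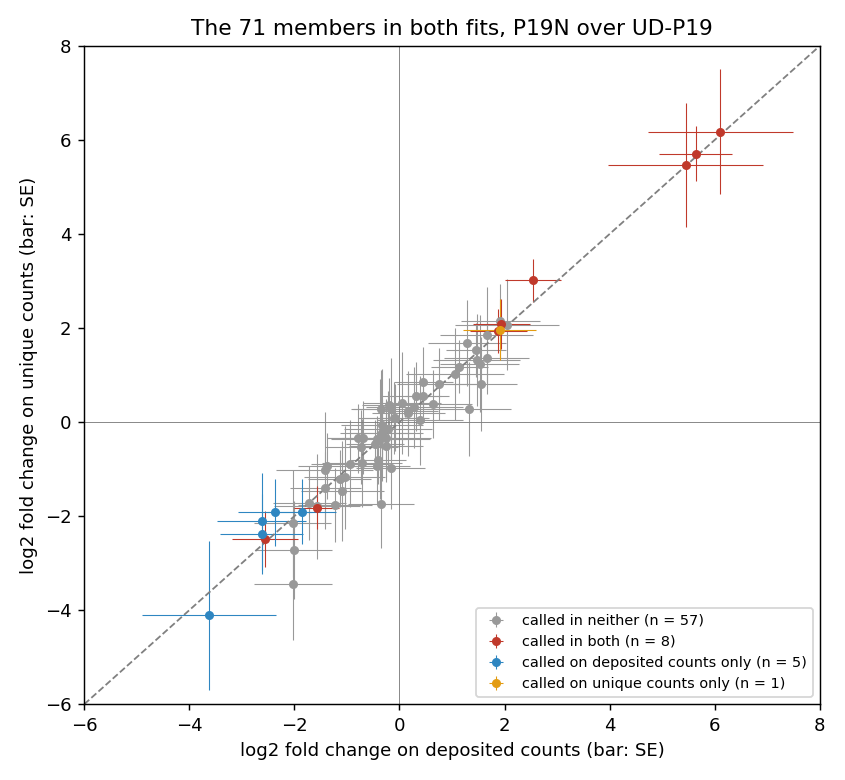
Each point is one of the 71 members, with its log2 fold change (P19N over UD-P19) and SE on deposited counts along the horizontal axis and on unique counts along the vertical axis, and the dashed line marks equal values. Of the 8 members called in both fits, 6 lie above 0 and 2 below, and the points follow the dashed line with 5 of 71 changing sign.

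In CPM, all P19N libraries lay above all UD-P19 libraries in 18 members and below in 11, while the groups overlapped in 42. Over all tested transcripts 25.2% lay above and 16.8% below.

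Gm48281 had almost no counts in UD-P19 exosomes and had counts in every P19N library. It held 1, 1 and 1 counts in UD-P19 and 83, 82 and 47 in P19N, and its unique counts were 1, 1 and 1 against 81, 82 and 46. The groups did not overlap, and the group ratio was 56.5-fold higher in P19N (95% exact counting interval 19.1 to 276). The log2 fold change was 5.64 ± 0.69 (SE, edgeR adjusted p = 1.9e-05) on deposited counts and 5.71 ± 0.59 (edgeR adjusted p = 0.000127) on unique counts. Gm25682, the snRNA on its other strand, held 1, 9 and 5 counts in UD-P19 and 34, 39 and 26 in P19N, a log2 fold change of 2.46 ± 0.60 (edgeR adjusted p = 0.0068). Counts assigned to both transcripts of the locus were thus higher in P19N, those of Gm48281 from a lower level in UD-P19. Of the 215 counts of Gm48281 only 6 were exact, taken to be without a mismatch. The transcript also matches 33 snRNA genes, and whether its reads came from this locus was not tested. The table does not say where in a transcript a read lies, nor is the use of strand in the counting given in the sources used here.

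Gm48742, the transcript antisense to Mir100, and A230057D06Rik-7061 were found in P19N alone. Gm48742 held 0 counts in each UD-P19 library and 9, 5 and 14 in P19N, all of them unique. With a floor of 3 counts over the UD-P19 libraries, this is at least 7.46-fold higher in P19N, and edgeR gave an adjusted p of 0.00549. A230057D06Rik-7061 (chr7:61916400-61928690, minus strand) held 0 counts in each UD-P19 library and 9, 5 and 4 in P19N, all unique, which is at least 4.79-fold higher (edgeR adjusted p = 0.0147). With 1 P19N library left out, its total was too low to be tested, as was that of Gm48742 without P19N replicate 6. The second counted transcript of the gene, A230057D06Rik-8953, whose introns hold hairpins of the Mir344 family, gave 1, 2 and 6 counts in UD-P19 and 4, 7 and 4 in P19N, and its groups overlapped (log2 fold change 0.38 ± 0.82, edgeR adjusted p = 0.759). Reads from the same gene thus gave a transcript found in P19N alone and one found in both.

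Gm49701 had the most counts of the members called higher in P19N. It held 15, 14 and 14 counts in UD-P19 and 169, 108 and 67 in P19N, or 25.5 ± 10.3 CPM (SD, n = 3) against 145 ± 52.9 (SD, n = 3). The groups did not overlap, and the highest P19N value was that of day 8. The log2 fold change was 2.54 ± 0.53 (edgeR adjusted p = 0.00269) on deposited counts and 3.01 ± 0.45 (edgeR adjusted p = 0.000915) on unique counts. Its near-copy Gm45322 held 10, 19 and 11 counts in UD-P19 and 83, 43 and 18 in P19N. The groups did not overlap in CPM, yet the day 12 library was close to UD-P19, and the log2 fold change of 1.46 ± 0.57 was not called (edgeR adjusted p = 0.0769), while without P19N replicate 6 it was 1.84 (adjusted p = 0.0311). It was smaller without P19N replicate 4, at 0.71 (edgeR adjusted p = 0.489), and without UD-P19 replicate 3, at 1.09 (edgeR adjusted p = 0.252). The third copy, Gm45627, given for its sequence and chosen after its values were seen, held 3, 19 and 7 counts against 7, 12 and 7, with overlapping groups (log2 fold change -0.35 ± 0.63, edgeR adjusted p = 0.709, and 0.38 ± 0.63, adjusted p = 0.624, without UD-P19 replicate 2). With all libraries and all 1286 transcripts Gm49701 alone of the 3 near-copies was called, and Gm45322 was called too among the 770 transcripts that edgeR's filterByExpr keeps (log2 fold change 1.65, edgeR adjusted p = 0.0288). Differences between the copies were not tested, and reads may have been split among them.

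The counts assigned to Gm31600 and Gm48681 were also higher in P19N. Almost none of them were exact (taken to be without a mismatch), 1 of 176 in Gm31600 and 0 of 268 in Gm48681. Gm31600 (chr13:37761797-37768147, plus strand) held 7, 16 and 7 counts in UD-P19 and 71, 45 and 30 in P19N, a log2 fold change of 1.94 ± 0.54 (edgeR adjusted p = 0.0144). Gm48681 (chr12:119564371-119567251, minus strand) held 12, 13 and 20 counts in UD-P19 and 98, 88 and 37 in P19N, a log2 fold change of 1.88 ± 0.54 (edgeR adjusted p = 0.0186). Neither pair of groups overlapped, and in both members the day 12 library was the lowest of the P19N libraries. Their calls were lost when 1 of several libraries was left out: the adjusted p of Gm31600 was 0.106 without P19N replicate 4, 0.0678 without P19N replicate 5, 0.0618 without UD-P19 replicate 1 and 0.0834 without UD-P19 replicate 3, and that of Gm48681 was 0.111, 0.133 and 0.0663 without P19N replicates 4 and 5 and UD-P19 replicate 1. Gm49753 (chr17:19257930-19277565, plus strand) had similar values, with 3, 4 and 2 counts against 22, 16 and 7, all unique, but with all libraries it was called on unique counts alone, with a log2 fold change of 1.96 ± 0.65 (edgeR adjusted p = 0.048), against 1.91 ± 0.69 (edgeR adjusted p = 0.0555) on deposited counts. Without P19N replicate 6 its log2 fold change on deposited counts was 2.23 (edgeR adjusted p = 0.0295). It was smaller without P19N replicate 4 (1.40, edgeR adjusted p = 0.301), P19N replicate 5 (1.57, 0.222) or UD-P19 replicate 3 (1.45, 0.183). In CPM, 3 of the 6 members called higher fell from day 8 through day 10 to day 12, with 1 library at each age and no test.

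**Figure D2:**
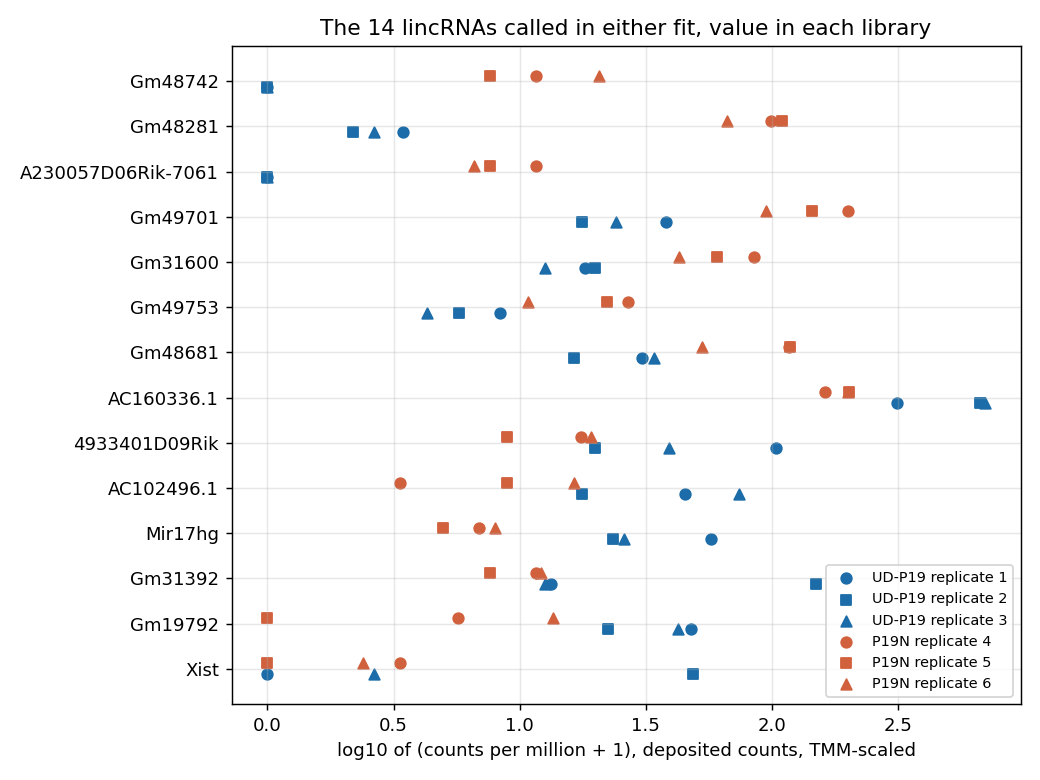
The 14 members called in either fit are ordered by log2 fold change, and each symbol is one library, as the base-10 logarithm of CPM plus 1 (deposited counts), UD-P19 in blue and P19N in orange. The groups are separate for every member shown but Xist, whose high value is that of UD-P19 replicate 2.

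Among the members lower in P19N, Mir17hg fell in every P19N library. It held 23, 19 and 15 counts in UD-P19 and 5, 3 and 5 in P19N, or 34.6 ± 18.98 CPM (SD, n = 3) against 5.61 ± 1.52 (SD, n = 3). The groups did not overlap, and the log2 fold change was -2.56 ± 0.63 (edgeR adjusted p = 0.00763) on deposited counts, -2.48 ± 0.60 (edgeR adjusted p = 0.013) on unique counts and -2.59 ± 0.57 (edgeR adjusted p = 0.000723) without UD-P19 replicate 2. Of its hairpins, shown above, Mir20a held 4, 3 and 2 counts in UD-P19 and 0 in each P19N library, too few to be tested, Mir18 held 1 count, Mir92-1 held 2 and Mir19b-1 held 0, while Mir17 and Mir19a were not analysed here. The host, with 70 counts, thus had more reads than any of these hairpins. These totals are not scaled for length, which is 3536 bases in the host and 107 in Mir20a.

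AC160336.1 (chr14:44544055-44637201, minus strand), a single exon of 93147 bases that overlaps Gm5624, had the second highest unique total of the members. It held 127, 560 and 420 counts in UD-P19 and 137, 152 and 143 in P19N, or 557 ± 213 CPM (SD, n = 3) against 187 ± 22.5 (SD, n = 3). The raw count of UD-P19 replicate 1 was below those of P19N, and it was above them only once scaled to its smaller library. The log2 fold change was -1.57 ± 0.43 (edgeR adjusted p = 0.0126) on deposited counts and -1.82 ± 0.46 (edgeR adjusted p = 0.0149) on unique counts, and -1.67 without P19N replicate 4 (adjusted p = 0.0579). Per kb it was a weakly counted transcript, with 11.6 unique counts per kb over all libraries against 417 for Gm49701.

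A further 5 members were lower on deposited counts and not called on unique counts. Gm19792 (chr13:62336463-62340727, minus strand) held 19, 18 and 25 counts in UD-P19 and 4, 0 and 9 in P19N (log2 fold change -2.62 ± 0.78, edgeR adjusted p = 0.021). AC102496.1 held 18, 14 and 44 counts in UD-P19 and 2, 6 and 11 in P19N (log2 fold change -2.37 ± 0.71, edgeR adjusted p = 0.0212). 4933401D09Rik (chr17:15631763-15634681, plus strand) held 42, 16 and 23 counts in UD-P19 and 14, 6 and 13 in P19N (log2 fold change -1.86 ± 0.65, edgeR adjusted p = 0.0483). In these 3 the groups did not overlap in CPM, and the call held without UD-P19 replicate 2. It was lost in all 3 without P19N replicate 4 or 5, with edgeR adjusted p-values between 0.0517 and 0.135, in AC102496.1 also without UD-P19 replicate 3 (0.0874) and in 4933401D09Rik without UD-P19 replicate 1 or P19N replicate 6 (0.185 and 0.0785). On unique counts their log2 fold changes were -2.38, -1.92 and -1.91, with edgeR adjusted p-values of 0.0637, 0.0696 and 0.0671.

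The other two, Gm31392 and Xist, rest on UD-P19 replicate 2. Gm31392 (chr14:24044343-24075908, minus strand) held 5, 125 and 7 counts in UD-P19 and 9, 5 and 8 in P19N, so that 78.6% of its counts came from that library. Its log2 fold change was -2.62 ± 0.85 (edgeR adjusted p = 0.0319) with all libraries and -0.13 ± 0.62 (edgeR adjusted p = 0.866) without it. Xist, the RNA that coats the inactive X chromosome, held 0, 40 and 1 counts in UD-P19 and 2, 0 and 1 in P19N. It was called lower in P19N at a log2 fold change of -3.62 ± 1.27 (edgeR adjusted p = 0.0483), and without replicate 2 its total was too low to be tested. Both calls were also lost when any 1 P19N library was left out, with adjusted p-values between 0.0631 and 0.134. In Xist the groups overlapped, and outside that library no library held more than 2 counts.

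Leaving out UD-P19 replicate 2 moved the members as a whole. The median log2 fold change over the members went from -0.25 to 0.44, while over all tested transcripts it went from 0.21 to 0.60. Then 14 members were called higher and 5 lower, where 33.4% of the 1145 tested transcripts were higher and 13.2% lower. The sign changed in 14 members, 4 were no longer tested, and 11 of the 13 calls made with it were kept. The 8 members called without it alone were all higher in P19N: Gm35439, Lockd, Gm45322, Gm49753, B230208H11Rik, Gm49756, A130077B15Rik and 4930533N22Rik. All but Gm45322 and 4930533N22Rik had under 15 unique counts in UD-P19, so that their common direction is a description. Of these, 2 are given as examples, chosen after their values were seen. Lockd, a lincRNA from the locus of the cell cycle inhibitor Cdkn1b, held 3, 8 and 1 counts in UD-P19 and 19, 16 and 9 in P19N, and its log2 fold change was 1.55 ± 0.68 (edgeR adjusted p = 0.104) with replicate 2 and 2.33 ± 0.72 (edgeR adjusted p = 0.00995) without it. A130077B15Rik held 2, 50 and 2 counts against 16, 15 and 13, and its log2 fold change went from -0.34 ± 0.78 (edgeR adjusted p = 0.78) to 2.39 ± 0.69 (edgeR adjusted p = 0.00685).

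The members that moved most with that library shared their sequence widely. Of the 46 members with a match in at least 100 other genes, a split chosen after the values were seen, 26 were highest in UD-P19 replicate 2, and the median member had 33.6% of its counts there. Of the 25 members with fewer matches, 5 were highest there and the median member had 14.7% of its counts in it. The median log2 fold change of the 46 was -0.30 with the library and 0.51 without it (43 tested), and that of the 25 was 0.16 and 0.31 (24 tested). The 46 were also longer, with a median of 2673 against 1361 bases, and had a lower unique share, with a median of 56.1% against 89.3%. Whether shared sequence, length or another property accounts for the values of that library was not tested.

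**Figure D3:**
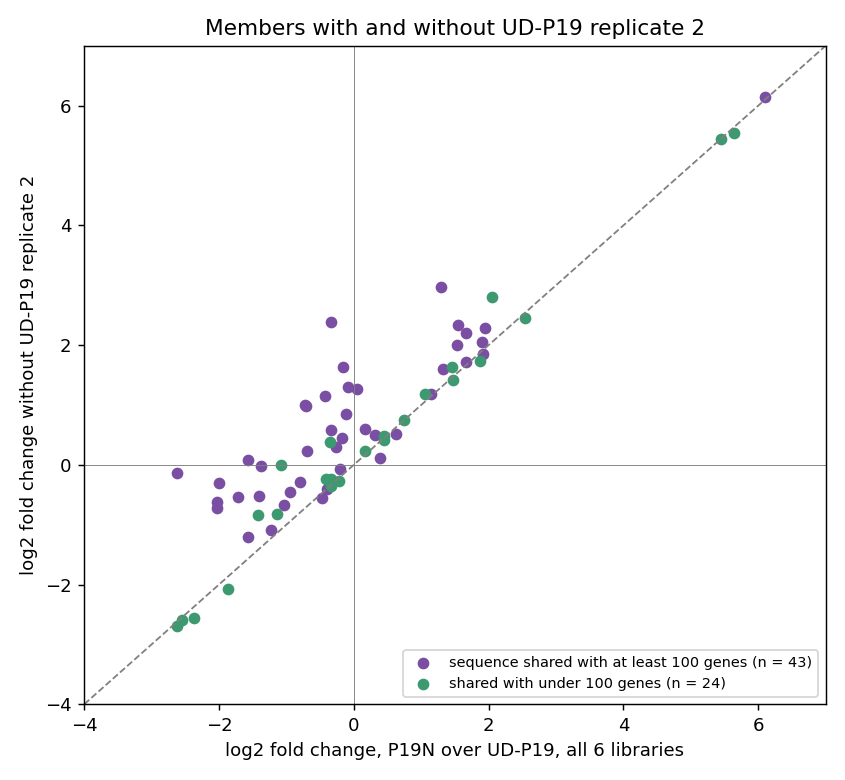
The log2 fold change (P19N over UD-P19, deposited counts) of 67 members with all 6 libraries, along the horizontal axis, is set against that without UD-P19 replicate 2, along the vertical axis, with members whose sequence is shared with at least 100 genes in purple and the others in green. Points above the dashed line of equality had a higher log2 fold change without that library, as A130077B15Rik did, which went from -0.34 to 2.39.

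The microRNA hosts among the members were Mir17hg, Mir124a-1hg, 6720427I07Rik, A230057D06Rik-8953 and Gm49794, of which Mir17hg alone was called, where 9.02% of all tested transcripts were lower and 15% higher. Mir124a-1hg, the host of miR-124, a microRNA abundant in neurons, held 0, 3 and 2 counts in UD-P19 and 7, 10 and 3 in P19N. Its groups did not overlap in CPM, and the log2 fold change was 1.66 ± 0.89 (edgeR adjusted p = 0.174). It was 0.99 without UD-P19 replicate 1 or without P19N replicate 5 (edgeR adjusted p = 0.463 and 0.586). Without UD-P19 replicate 2 it was 2.20 (edgeR adjusted p = 0.0708). 6720427I07Rik, which carries the let-7 hairpins shown above, held 2, 4 and 5 counts in UD-P19 and 18, 21 and 1 in P19N. Its day 12 library was below all UD-P19 libraries, and the log2 fold change was 1.47 ± 0.82 (edgeR adjusted p = 0.194), with 2.02 (adjusted p = 0.0375) without that library, P19N replicate 6, and 0.64 (adjusted p = 0.707) without P19N replicate 5. Gm24111, a microRNA gene annotated on the other strand over Mirlet7f-1, held 0 counts in each UD-P19 library and 7, 14 and 13 in P19N (edgeR adjusted p = 0.00299), and Mirlet7f-1 itself held 1 count in P19N replicate 4. Gm49794, which spans Mir7217 and Mir7218, held 2, 9 and 4 counts against 6, 6 and 3, with overlapping groups (log2 fold change -0.26 ± 0.71, edgeR adjusted p = 0.818). The snoRNA host Gm49714, with the snoRNA Gm23406 in an exon, held 6, 9 and 8 counts in UD-P19 and 26, 25 and 15 in P19N, while Gm23406 held 0 in every library. Its groups did not overlap, and its log2 fold change of 1.14 ± 0.54 was not called (edgeR adjusted p = 0.135).

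Of 36 lincRNA names linked to neural cells, 23 were in the table and 14 of their transcripts could be tested on deposited counts: 1 was higher, A230057D06Rik-7061, and 1 lower, 5031425E22Rik, which is not a member. Over all tested transcripts 15% were higher and 9.02% lower, the background for this list and for the next ones. Members among them also include the transcripts known as Cyrano and Norad. 1700020I14Rik (Cyrano), which directs the decay of the microRNA miR-7, held 6, 12 and 10 counts in UD-P19 and 9, 1 and 5 in P19N. All P19N libraries were below UD-P19 in CPM, and the log2 fold change was -1.23 ± 0.71 (edgeR adjusted p = 0.205). It was -1.97 (edgeR adjusted p = 0.156) without P19N replicate 4 and -0.99 (edgeR adjusted p = 0.420) without P19N replicate 5. 2900097C17Rik (Norad), which binds PUMILIO proteins and guards genome stability, held 10, 23 and 11 counts in UD-P19 and 15, 6 and 4 in P19N, again without overlap in CPM (log2 fold change -1.14 ± 0.60, edgeR adjusted p = 0.171). Its log2 fold change was -1.95 (edgeR adjusted p = 0.0877) without P19N replicate 4 and -0.82 (edgeR adjusted p = 0.226) without UD-P19 replicate 2. Bc1 held 4, 23 and 6 counts in UD-P19 and 5, 6 and 3 in P19N, and was lower in CPM in each P19N library, without a call (log2 fold change -1.41 ± 0.68, edgeR adjusted p = 0.139, and -0.52 ± 0.69, adjusted p = 0.541, without UD-P19 replicate 2). Of 28 names linked to pluripotency, 10 were in the table and none is a member, and of their 15 tested transcripts, 14 of Gas5 and 1 of Firre, 5 were lower in P19N, all of Gas5. Of 13 names of X-inactivation and imprinting, 10 were in the table, and Xist was the only member and the only one of 9 tested transcripts that was called.

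Gm26917 (chr17:39843013-39846341, plus strand, 3329 bases, 69.1% GC), the neighbour of Gm42418, was the most abundant member by far, also per kb. It had 3345 unique counts per kb over all libraries against a median of 16.3 over the members. Like Gm42418 it was taken as a transcript of the ribosomal RNA precursor locus. It held 1147, 1508 and 1770 counts in UD-P19 and 3136, 2321 and 2533 in P19N. This was 2511 ± 629 CPM (SD, n = 3) against 3433 ± 324 (SD, n = 3), and the groups did not overlap, with 2929 as the highest UD-P19 and 3070 as the lowest P19N value. The log2 fold change of 0.45 ± 0.34 was not called (edgeR adjusted p = 0.332), nor was that of 0.55 ± 0.27 on unique counts (edgeR adjusted p = 0.156). Of the other members with the 10 highest unique totals, Gm45090 held 9, 115 and 16 counts in UD-P19 and 37, 38 and 34 in P19N, and its log2 fold change was -0.42 ± 0.63 with UD-P19 replicate 2 and 1.15 ± 0.49 without it (edgeR adjusted p = 0.645 and 0.0564). 4930509G22Rik held 25, 21 and 33 counts against 34, 14 and 30, and Gm46430 held 10, 21 and 15 against 15, 19 and 9. In both the groups overlapped, and neither was called (edgeR adjusted p = 0.549 and 0.582).

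Because of Gm26917 the members' share of a library says little about the rest. Their summed unique counts were 0.47% ± 0.0975 (SD, n = 3) of all unique counts in UD-P19 and 1.22% ± 0.0648 (SD, n = 3) in P19N (p = 0.1, two-sided exact permutation test, the smallest p that 3 against 3 allows). Without Gm42418 in the total, the shares were 2.53% ± 0.273 and 2.42% ± 0.105 (exact permutation p = 0.6), so that the direction turned. Without Gm26917 among the members, their shares of all unique counts were 0.168% ± 0.0883 and 0.302% ± 0.0462 (exact permutation p = 0.2), and without Gm42418 in the total they were 0.888% ± 0.365 and 0.598% ± 0.110 (exact permutation p = 0.3), again in the other direction. Between 61 and 69 members had a unique count in each UD-P19 library and between 66 and 70 in each P19N library (exact permutation p = 0.3), and 51 had one in all 6.

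Of the 6 members called higher, 4 had few reads that matched without a mismatch. Exact counts, taken to be reads without a mismatch, were 0 of the 268 counts of Gm48681, 1 of the 176 of Gm31600, 6 of the 215 of Gm48281 and 5 of the 28 of Gm48742. Gm49753, called higher on unique counts, had 1 exact count of 54. Among lower members 4933401D09Rik had 0 of 114. By contrast 17 of the 18 counts of A230057D06Rik-7061 were exact, 56 of the 70 of Mir17hg, 23 of the 25 of Mir124a-1hg and 217 of the 387 of Gm49701. Over the members the exact share ranged from 0% to 94.4% with a median of 35.9%, and over the whole table it lay between 44.2% and 64.4% per library. Where exact counts were tested in place of deposited counts, 42 members could be tested, and 2 were higher (Gm49701 and A230057D06Rik-7061) and 6 lower, the latter being Mir17hg, AC160336.1, AC102496.1, Gm31392, Gm28268 and Gm49534. Gm28268 and Gm49534 had most of their counts in UD-P19 replicate 2 and reached the rule's unique total through UD-P19 alone. On deposited counts the log2 fold change of Gm28268 was -2.03 with that library and -0.72 (edgeR adjusted p = 0.394) without it, and that of Gm49534 was -2.005 and -0.30 (edgeR adjusted p = 0.686). On exact counts 20% of the 966 tested transcripts were higher and 17.5% lower.

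**Figure D4:**
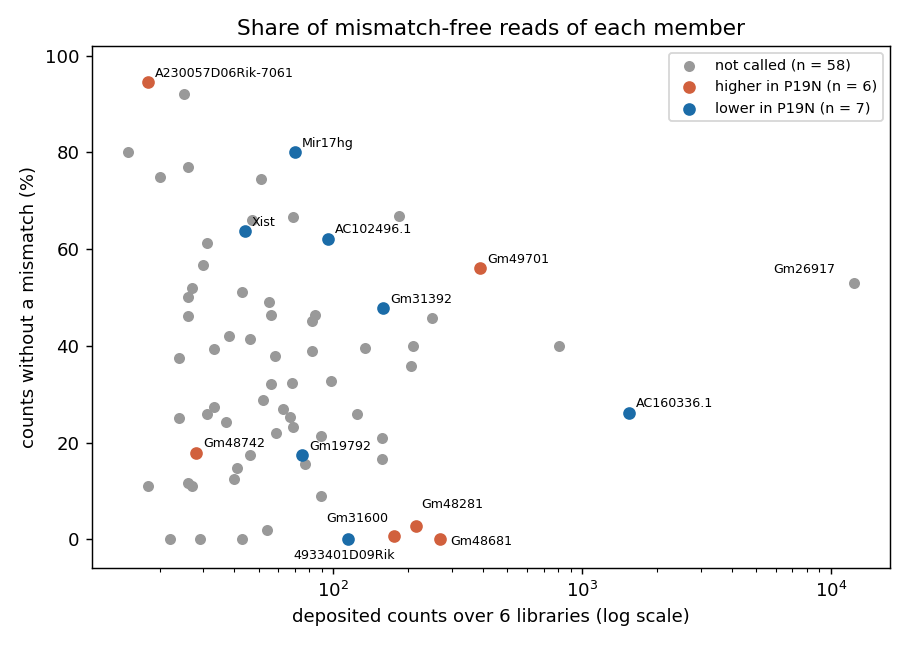
Each point is one of the 71 members, with its deposited counts over the 6 libraries on a log axis and the percentage of them that matched without a mismatch. Gm48681, Gm31600 and Gm48281, called higher in P19N, lie near 0%, whereas A230057D06Rik-7061 and Mir17hg lie at 94.4% and 80%.

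Many members shared sequence with annotated genes of small RNA classes. Of the 71 members, 31 matched an annotated snRNA (10 members), RNA of the class misc RNA (28) or rRNA (1) over 39 to 169 bases. The best-matching gene of a class was mostly rare here, and 7 of the 31 members had one with over 100 counts. Of the 31, 3 were called higher (Gm48281, Gm48742 and Gm31600) and 2 lower (AC160336.1 and Xist), where 15% of all tested transcripts were higher and 9.02% lower. In 15 of them UD-P19 replicate 2 was the highest library, as it was in 31 of all 71 members and in 22.4% of all tested transcripts. The snRNA Gm23744, with 4535 counts, was matched by 4 of them over 71 bases on the opposite strand, 4930533N22Rik, D5Ertd615e, Gm26905 and Gm47221. Gm26905 and Gm47221, whose match was at 100%, held 9.63% and 10.6% unique counts. They also shared 2288 bases at 99.0% identity with each other. The other members with this match, 4930533N22Rik and D5Ertd615e, held 38.35% and 37.5%. What lowers a unique share was not tested. Gm26905, also singled out after its values were seen, held 47, 457 and 74 counts in UD-P19 and 76, 73 and 83 in P19N, so that its log2 fold change was -1.38 ± 0.56 (edgeR adjusted p = 0.0904) with UD-P19 replicate 2 and -0.01 ± 0.42 (adjusted p = 0.982) without it. Gm23744 held 147, 64 and 162 counts in UD-P19 and 1659, 1647 and 856 in P19N. Gm24447, a misc RNA that Gm26905 matched over 96 bases at 91.7% identity on the same strand, held 43, 52 and 25 counts in UD-P19 and 253, 155 and 85 in P19N. The part of either in the counts of Gm26905 was not tested.

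At the threshold of the rule, D5Ertd615e held 1, 4 and 1 unique counts in UD-P19 and 6, 0 and 3 in P19N, Gm13589 held 0, 8 and 0 against 1, 4 and 2, and A230057D06Rik-8953 held 1, 2 and 4 against 1, 4 and 3, 15 in total for each. The other members with 15 were Gm48843 (2, 7 and 1 against 2, 0 and 3) and Gm9801 (1, 4 and 1 against 4, 3 and 2). Just outside it, with 14, were 2810429I04Rik (1, 9 and 2 against 2, 0 and 0), 5430416N02Rik (1, 3 and 3 against 5, 1 and 1) and Gm6410 (0, 8 and 1 against 2, 2 and 1). These counts are too low to order the groups.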

How the data were processed

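The authors merged the paired reads of NEBNext small RNA libraries and counted them with CLC Genomics Workbench at default settings (version not given in the sources used here) against non-coding RNAs of GRCm38. The deposited table gives raw counts per transcript. Its unique and exact counts are not defined there and were read as reads matching 1 transcript and reads without a mismatch. Columns of the authors' own edgeR comparison (fold changes, p-values) were not used, nor were 48 other library columns. Classes, coordinates and sequences came from the GENCODE annotation vM21, in which 5773 transcripts of the table were found by their identifiers and 107 were not. Shared sequence was found with BLAST 2.17.0 (at least 90% identity over at least 30 bases). Counts of all transcripts with a total of at least 15 (1286, and 510 on unique counts) were tested with edgeR 4.0.16 in R 4.3.3 (TMM, quasi-likelihood F test, Benjamini-Hochberg), and DESeq2 1.42.0 was an alternative. The test was checked on simulated data. SEs are the log2 fold change over the square root of F. Totals of 3 against 3 libraries were compared by exact two-sided permutation (20 relabellings). Intervals and floors cover counting error only. Members and lists were chosen with earlier results of these data known. The named members are those in the lists, those the study names, the 10 highest, the called ones and those next to the threshold, and others, such as Bc1, are said to be chosen after their values were seen where they are named.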

Additional observations from a re-analysis of the deposited data

How the results depend on the processing

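Of the 13 members called on deposited counts, 5 (A230057D06Rik-7061, Gm48281, Gm48742, Gm49701 and Mir17hg) stayed called, with the same direction, in every alternative that tested them other than an adjusted p of at most 0.01, which for all but Gm49701 is partly built into the choice of members. The number called was 8 with totals alone (22.2% of all tested transcripts were called, 24% as reported), 8 with exact counts (37.5%, chosen after seeing the data), 4 at an adjusted p of at most 0.01 (14.2%) and between 4 (without P19N replicate 4, 17.2%, against 5 without P19N replicate 5, 19%) and 19 (without UD-P19 replicate 2, 46.6%) with 1 library left out. On unique counts 2 were called at 0.01 (11.8% of all), and between 3 (without P19N replicate 5, 13.4%, against 4 without P19N replicate 4, 13.9%) and 15 (without UD-P19 replicate 2, 44.7%) with 1 library left out. For the counts the cause was not tested, apart from the fewer libraries or reads. The difference in summed unique share, 0.755 percentage points, became -0.118 without Gm42418 in the total and lay between 0.720 and 0.810 with 1 library left out. With deposited counts in place of unique counts it was 0.0871 (exact permutation p = 0.3). The difference in members detected, 4.00, was 11.4 after thinning each library to the smallest unique total, -0.65 after thinning without Gm42418 and lay between 2.33 and 6.33 with 1 library left out. Among named members the log2 fold change of 4930509G22Rik became 0.16 on exact counts. With 1 library left out, that of A230057D06Rik-8953 became -0.11 (without UD-P19 replicate 1) or -0.15 (without P19N replicate 5), that of Gm45090 lay between -1.06 and 1.15 and that of Gm49794 between -0.72 and 0.29, both positive without UD-P19 replicate 2. No paired analysis was possible because the groups share no replicate number.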
